A study of Caenorhabditis elegans with 2 samples.

Results

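The 10 genes described here encode actin and proteins that turn actin filaments over in Caenorhabditis elegans. They are the actin genes act-1, act-2, act-3, act-4 and act-5, the ADF/cofilin gene unc-60, the actin-interacting protein gene unc-78, and the profilin genes pfn-1, pfn-2 and pfn-3. They were chosen by name, with earlier results of these data known, out of 19973 protein-coding genes on the nuclear chromosomes. All 10 matched the annotation. Binding of CND-1, a basic helix-loop-helix transcription factor of the NeuroD family, was mapped by chromatin immunoprecipitation and sequencing (ChIP-seq) in 2 biological replicates, which form 1 group. The worms were whole embryos of mixed stage and both sexes, with a labelled age of 3 hours, obtained by egg bleaching from strain OP349 (unc-119(ed3) III; wgIs349). In this line a transgene expresses CND-1 with GFP and FLAG at its C-terminus, and the immunoprecipitation used an anti-GFP antibody per the sample descriptions, while the antibody field of the labels reads cnd-1. Both replicates come from this 1 transgenic line, so differences between lines were not measured. Whole embryos mix all cell types, so a summit cannot be assigned to a tissue. The control experiment was not analysed here, and no comparison between conditions exists.

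Actin monomers assemble into polar filaments that carry muscle contraction, cell shape and cell movement. Profilins bind actin monomers and feed them to growing filament ends, ADF/cofilin proteins sever and disassemble filaments, and AIP1 proteins such as UNC-78 speed up this disassembly together with cofilin. In C. elegans, act-1, act-2 and act-3 form a cluster, act-4 lies apart from it on X, and act-5 encodes the actin of intestinal microvilli. CND-1 itself is known for its part in the specification of embryonic neurons.

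Summits were found from 3000 bp upstream of the gene start to the gene end. A summit is the base of highest enrichment in a region, as given in the authors' peak lists. The thresholded list, made from both replicates, holds 1940 nuclear peaks. The lists of the pooled reads and of each replicate hold 30000 regions each, a mixture of peaks and background. Signal is the peak caller's own value with no stated scale, so ranks are given within each list's nuclear regions, and replicate signals are also given as multiples of the median nuclear signal of their own list (25.1 in replicate 1 and 26.0 in replicate 2). The 1940 thresholded nuclear peaks were the 1940 strongest nuclear regions of the pooled list. The weakest had a signal of 103.07, and the next region below the threshold had 103.06. Sequencing depth is unknown from these lists.

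Thresholded CND-1 summits lay at 6 of the 10 genes, namely act-1, act-2, act-4, unc-60, pfn-1 and pfn-2, and at none of act-3, act-5, unc-78 and pfn-3. Of all protein-coding genes 11% had one in the same window. The 6 genes rest on 8 distinct summits, because act-1 and act-2 share one. Of the 8 summits, 6 lay upstream of the gene and 2 inside act-4. By annotation, 4 lay in promoters, 1 in an intron and 3 in intergenic sequence, and none lay in a coding exon. Genes for tRNA, snoRNA and snRNA were all farther than 100 bp from these 8 summits. Apart from coding exons, treated below, the like shares over all thresholded nuclear peaks are not reported here. Whether the upstream, promoter, intron and intergenic counts or these distances are usual for CND-1 peaks therefore cannot be judged.

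The sequences around 7 of the 8 thresholded summits are shown so that the presence or absence of E-boxes, the sites recognised by basic helix-loop-helix proteins, can be read at each of them. Each line gives 100 bp of the plus strand of ce11 from 5′ to 3′, and capitals mark E-boxes (CANNTG).
act-2 407 bp upstream, chrV:11078511-11078610, summit at 11078561: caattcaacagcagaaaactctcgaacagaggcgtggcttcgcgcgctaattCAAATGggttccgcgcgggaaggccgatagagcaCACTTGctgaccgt
act-4 31 bp upstream, chrX:4960540-4960639, summit at 4960590: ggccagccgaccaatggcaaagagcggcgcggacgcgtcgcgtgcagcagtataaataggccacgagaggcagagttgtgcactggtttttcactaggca
act-4 intron, chrX:4961769-4961868, summit at 4961819: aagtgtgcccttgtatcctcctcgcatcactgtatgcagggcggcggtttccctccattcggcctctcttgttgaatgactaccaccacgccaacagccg
act-4 before the inner start, chrX:4962400-4962499, summit at 4962450: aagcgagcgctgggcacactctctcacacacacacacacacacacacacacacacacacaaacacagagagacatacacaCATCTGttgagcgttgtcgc
unc-60 2375 bp upstream, chrV:1472661-1472760, summit at 1472711: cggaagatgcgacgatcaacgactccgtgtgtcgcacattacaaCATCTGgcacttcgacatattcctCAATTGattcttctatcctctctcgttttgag
unc-60 413 bp upstream, chrV:1474623-1474722, summit at 1474673: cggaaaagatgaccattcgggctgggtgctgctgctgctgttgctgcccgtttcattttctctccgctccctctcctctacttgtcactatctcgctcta
pfn-2 593 bp upstream, chrX:5354615-5354714, summit at 5354665: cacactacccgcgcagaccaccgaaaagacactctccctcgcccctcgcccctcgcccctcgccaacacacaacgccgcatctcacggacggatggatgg

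An E-box was present in 4 of the 8 windows of 100 bp, beside 49.4% of all 1940 thresholded nuclear peaks. Both strands were searched for each of the 10 E-boxes. CAGATG, written CATCTG on the plus strand, was present in 3 of the 8 windows and in 17.4% of all peaks. It lay 3 bp from the summit 2375 bp upstream of unc-60, 24 bp from the summit of pfn-1 and 32 bp from the summit before the inner start of act-4. These distances are from the pooled summit, and summits moved between replicates. In replicates 1 and 2 the offsets from the pooled summit were 0 and -2 bp at this unc-60 site. They were -7 and 25 bp at pfn-1, and 41 and 0 bp at this act-4 site. The window upstream of act-2 held CAAATG, present in 7.94% of all peaks, 4 bp from its summit, and CAAGTG, present in 6.34%, 38 bp from it. The window 2375 bp upstream of unc-60 also held CAATTG, present in 4.12% of all peaks. The summit windows at the act-4 start, in the act-4 intron, 413 bp upstream of unc-60 and upstream of pfn-2 held no E-box. These matches describe letters in a window and do not show which protein was bound. The CArG box, the site of serum response factors that is well known from vertebrate actin promoters, was in none of the 8 windows and in 0.206% of all peaks. The sequence TATAAA, looked for after the windows had been read, began 31 bp before the act-4 start, at the summit itself, was in none of the other 7 windows, and was present on either strand in 4.07% of all peaks.

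The 8 sites were of middle strength within the thresholded list. Their signals ran from 114.3 to 216.7 and their ranks from 480 to 1616 of 1940, with a median rank of 1022. All 8 had a region within 100 bp in both replicate lists, as had 95.6% of all thresholded nuclear peaks. The authors derived the thresholded list by a measure of agreement between replicates, so this is a description. Its nuclear peaks were those with the strongest pooled signal, so a single peak need not rank alike in both replicates. The plot of summit positions shows where these sites lie relative to the gene starts.

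**Figure D1:**
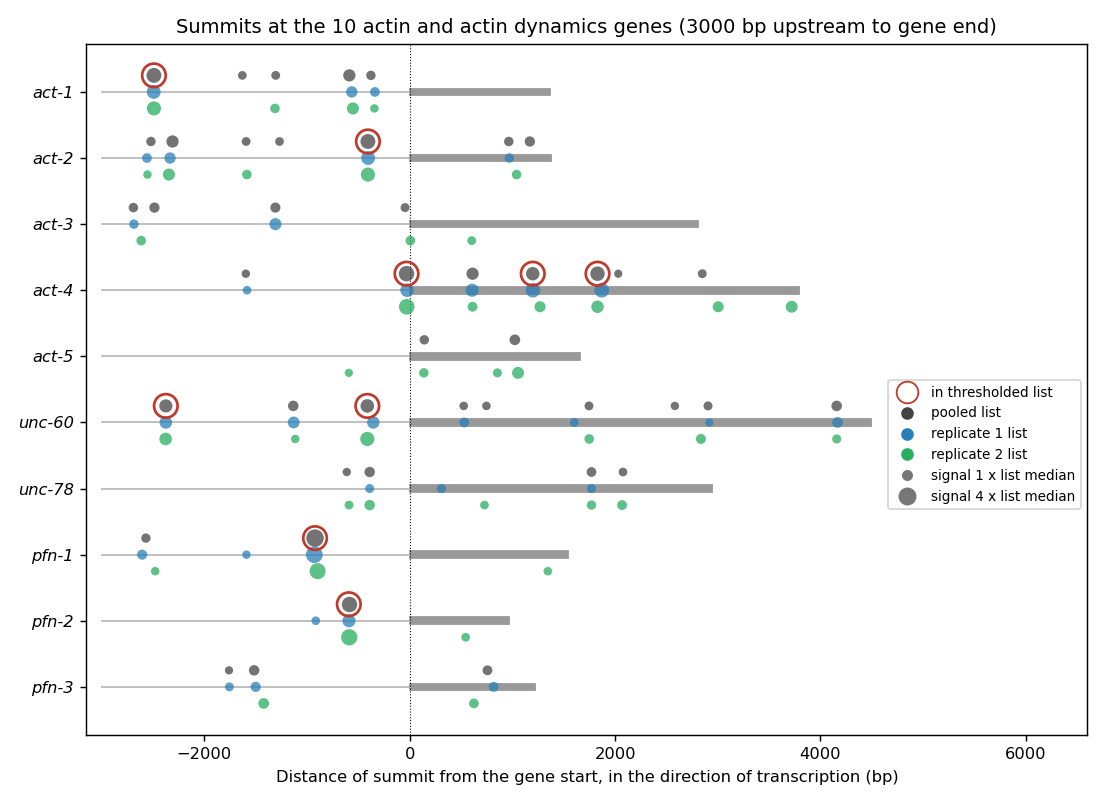
Each row is a gene, with a thin line for the 3000 bp upstream and a thick bar for the gene, and the x axis gives the distance of a summit from the gene start in bp along the direction of transcription. Dots are summits of the pooled list (upper, grey), replicate 1 (middle, blue) and replicate 2 (lower, green), dot area rises with signal over the list median, and red rings mark the thresholded summits, which occur at 6 genes and 3 times at act-4.

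Among the actins, act-4 (WBGene00000066, chrX:4960621-4964413, plus strand) had 3 thresholded summits, a number reached by 0.33% of protein-coding genes (66 of 19973). That share covers windows of all lengths. Of the other actin pathway genes described below, unc-70 and arx-1 also had 3. Their windows were 13502 and 13170 bp long, against 6793 bp for act-4. The gene has 2 annotated transcript starts. The first summit lay 31 bp upstream of the outer start (peak chrX:4960392-4960787, pooled signal 164.41, rank 816). Its signal was 66.97 in replicate 1 and 96.43 in replicate 2, or 2.66 and 3.71 times the list medians, with ranks 1213 and 681. The second summit lay 1229 bp further along, in an intron and 1056 bp upstream of the inner start (pooled signal 119.94, rank 1474). Its signal was 79.73 in replicate 1 and 43.20 in replicate 2, with ranks 850 and 3715. The matched replicate 2 summit had an offset of 71 bp from the pooled summit. The third lay 631 bp beyond the second and 425 bp upstream of the inner start (pooled signal 141.78, rank 1085). Its signal was 81.99 in replicate 1 and 57.30 in replicate 2, with ranks 798 and 1896.

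The order of the 3 act-4 sites differed between the replicates. The inner sites were the stronger ones in replicate 1, and the site at the outer start was the strongest in replicate 2. For the second site the ratio of replicate 2 to replicate 1, each over its list median, was 0.524. The 5th to 95th percentiles of this ratio over all matched thresholded peaks were 0.633 and 1.78, with a median of 1.05. The third site had a ratio of 0.676 and the first a ratio of 1.39. With 2 replicates no test of this order was possible. Another act-4 region, in the intron 612 bp downstream of the outer start, had a pooled signal of 95.57 and rank 2268. It was not thresholded, the weakest thresholded nuclear peak having a signal of 103.07 and rank 1940. It ranked 1389 in replicate 1 and 9546 in replicate 2. Replicate 2 alone held regions 3004 bp (rank 3899) and 3720 bp (rank 2455) downstream of the start, in a coding exon and in the 3′ UTR, with no replicate 1 region within 100 bp. The third site's window contained a CA dinucleotide run of 36 bp.

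The cluster of act-1, act-2 and act-3 on chromosome V carried 1 thresholded summit (peak chrV:11078363-11078758). It lay 407 bp upstream of act-2 (WBGene00000064, chrV:11076777-11078154, minus strand) and 2491 bp upstream of act-1 (WBGene00000063, chrV:11081052-11082415, plus strand). These genes point away from each other, with 2898 bp between their starts, and the nearest start is that of act-2. The pooled signal was 151.29, rank 959. Signals of 71.44 in replicate 1 and 76.91 in replicate 2 were 2.84 and 2.96 times the list medians, with ranks 1087 and 1066. The 2 replicates thus gave nearly the same value at this site.

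The act-1 side of the intergenic stretch held the strongest region at the 10 genes that missed the threshold. This region lay 588 bp upstream of act-1, with a pooled signal of 96.41 and rank 2217. It ranked 3117 in replicate 1 and 2266 in replicate 2. A window of 1000 bp upstream gave act-1 no thresholded summit, and a window of 5000 bp upstream also gave act-3 the summit in front of act-2.

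The gene act-3 (WBGene00000065, chrV:11071690-11074498, minus strand) had 4 regions of the pooled list in its window, none of them thresholded. Of these, 2 lay within the act-2 gene. The region 1308 bp upstream of act-3 had a pooled signal of 59.66 and rank 7333, ranked 2127 in replicate 1 and had no region within 100 bp in replicate 2. The remaining region lay 45 bp upstream of act-3, with rank 17522. The summits 407 bp upstream of act-2, 588 bp upstream of act-1 and 1308 bp upstream of act-3 each fell inside a pair of annotated ncRNA genes. Of the 37 distinct pooled summits at the 10 genes 4 lay in an annotated ncRNA gene, against 3.78% of all pooled nuclear summits. Of the 8 thresholded ones 1 did, against 14.6% of all thresholded nuclear summits.

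The intestinal actin gene act-5 (WBGene00000067, chrIII:13604412-13606066, minus strand) had no thresholded summit. Its window was empty in the replicate 1 list, in which 73% of protein-coding genes had at least 1 region. Replicate 2 held 4 regions, and 71.5% of genes had at least 1 there. The strongest of the 4, in a coding exon 1055 bp downstream of the start, ranked 2324 with 2.01 times the list median. The pooled list held 2 regions, with ranks 5193 and 12523, both in coding exons. The summits at act-5 thus rest on replicate 2.

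Reads from the actin coding sequences cannot all be assigned to 1 gene. The coding sequences of act-1 and act-3 were 100% identical. The coding sequence of act-4 was 94.1% identical to theirs and that of act-5 84.1%. At the protein level act-4 was 99.7% identical to them, and act-5 shared 92.3% of its residues with act-1. Of all 36-base words in the gene bodies, 12.6% occurred only once in the genome for act-1, 64.6% for act-2, 58.3% for act-3, 94.7% for act-4 and 99.1% for act-5. How reads with several matches were treated in making the peak lists is not given in the sources used here. Regions within act-1, act-2 and act-3, or their absence, are therefore uncertain. The word length was set here and is not the read length. At the thresholded sites nearly all words were unique. All 36-base words of the 100 bp window were unique at 7 of the 8 sites, and 92.3% of them at the third act-4 site. Among all thresholded nuclear peaks 86.8% had only unique words.

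The ADF/cofilin gene unc-60 (WBGene00006794, chrV:1475086-1479576, plus strand) had 2 thresholded summits, 1962 bp apart. The nearer one lay 413 bp upstream (peak chrV:1474475-1474870, pooled signal 122.21, rank 1423). Its signal was 55.90 in replicate 1 and 77.18 in replicate 2, with ranks 1767 and 1058. The matched replicate 1 summit had an offset of 58 bp from the pooled summit. The farther one lay 2375 bp upstream in intergenic sequence (pooled signal 114.30, rank 1616). Its signals of 56.74 in replicate 1 and 58.80 in replicate 2 were both 2.26 times the list median, with ranks 1721 and 1789. The nearer site was thus stronger in replicate 2 and the farther site equal in both. Between them lay a region 1134 bp upstream with a pooled rank of 5819, which ranked 2394 in replicate 1 and 24713 in replicate 2. The protein-coding gene F53E2.2 has the same annotated start as unc-60, so the nearer summit lies equally far from both genes. Neither unc-60 summit was among the strongest 970 thresholded peaks.

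The AIP1 gene unc-78 (WBGene00006810, chrX:3408674-3411615, minus strand) had 4 pooled regions and no thresholded summit. The best was 390 bp upstream, with a pooled signal of 63.78 and rank 6131. It ranked 17012 in replicate 1 and 5761 in replicate 2, at 0.948 and 1.42 times the list medians. Every 36-base word of the unc-78 window was unique in the genome. The cofilin gene and its partner gene thus differed in thresholded summits, with 2 at unc-60 and 0 at unc-78.

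Of the profilins, pfn-1 and pfn-2 each had 1 thresholded summit upstream, and pfn-3 had none. The summit of pfn-1 (WBGene00003989, chrI:12922004-12923548, plus strand) lay 922 bp upstream in intergenic sequence and was the strongest at the 10 genes (peak chrI:12920884-12921279, pooled signal 216.72, rank 480). It gave 109.42 in replicate 1 and 102.57 in replicate 2, or 4.35 and 3.95 times the list medians, a mean of 4.15 ± 0.286 (SD, n = 2). Its ranks were 436 and 600.

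The summit of pfn-2 (WBGene00003990, chrX:5353103-5354072, minus strand) lay 593 bp upstream (peak chrX:5354467-5354862, pooled signal 164.86, rank 809). It gave 62.30 in replicate 1 and 105.73 in replicate 2, or 2.48 and 4.07 times the list medians, a mean of 3.27 ± 1.13 (SD, n = 2). It ranked 1394 in replicate 1 and 561 in replicate 2, where it was the best-ranked region at the 10 genes. This site, at 66% G and C in 100 bp, was the richest in G and C of the 8, whose values ran from 46% to 66%, with a median of 50% over all thresholded peaks. The pfn-2 window held no other pooled region.

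The gene pfn-3 (WBGene00003991, chrX:1079430-1080649, minus strand) had 3 pooled regions. The strongest lay 1515 bp upstream, with a pooled signal of 64.67 and rank 5897, and ranked 6697 in replicate 1 and 4740 in replicate 2. The pfn-1 and pfn-2 proteins were 57.6% identical, while pfn-3 shared 29.5% with pfn-1 and 35.6% with pfn-2.

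**Figure D2:**
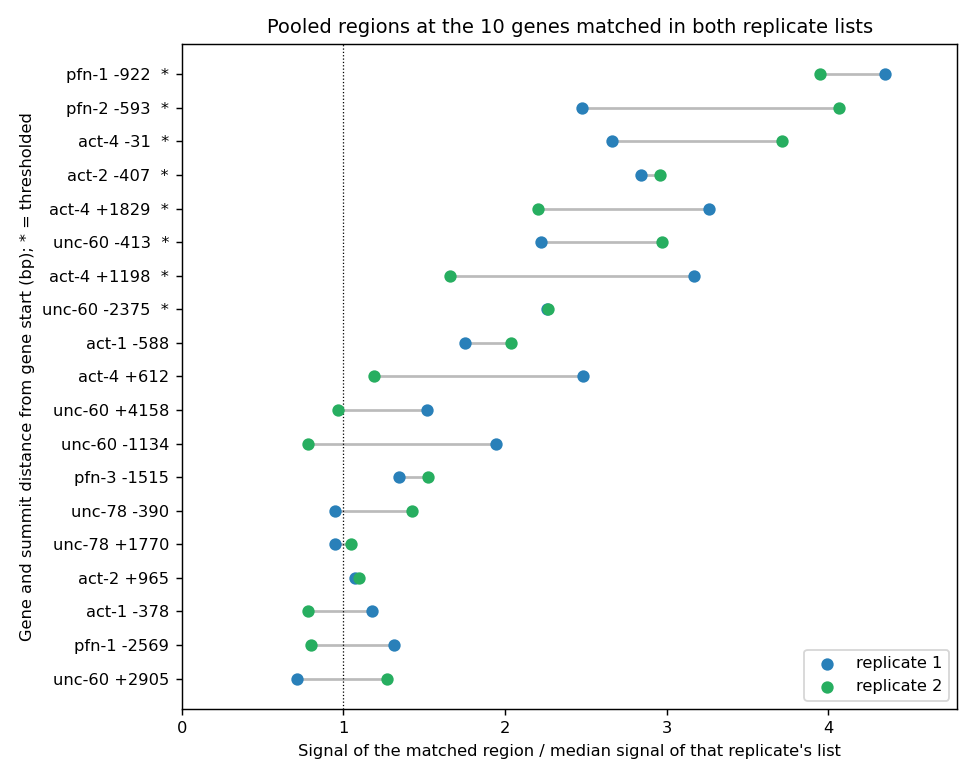
The x axis gives the signal of each matched region divided by the median signal of its replicate's list (dotted line at 1), with replicate 1 in blue and replicate 2 in green and a grey line joining them, for the 19 pooled regions matched in both replicate lists. Rows are ordered by pooled signal, named by gene and distance of the summit from the gene start in bp, and an asterisk marks the 8 thresholded sites, all of which were above 1.6 times the median in both replicates.

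The pooled list held 37 distinct regions in the 10 windows. Of the 29 that were not thresholded, 11 had a region within 100 bp in both replicate lists. Over all 37 regions, 5 were matched in replicate 1 only, 7 in replicate 2 only and 6 in neither. The like shares over all pooled nuclear regions are not reported here, so whether these match counts are usual cannot be judged. None of the 8 thresholded summits lay in a coding exon, beside 2.06% of all thresholded nuclear summits. In the pooled list 11 of the 37 did, or 29.7%, beside 29.1% of all pooled nuclear summits, so both values were close to those of the whole lists.

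**Figure D3:**
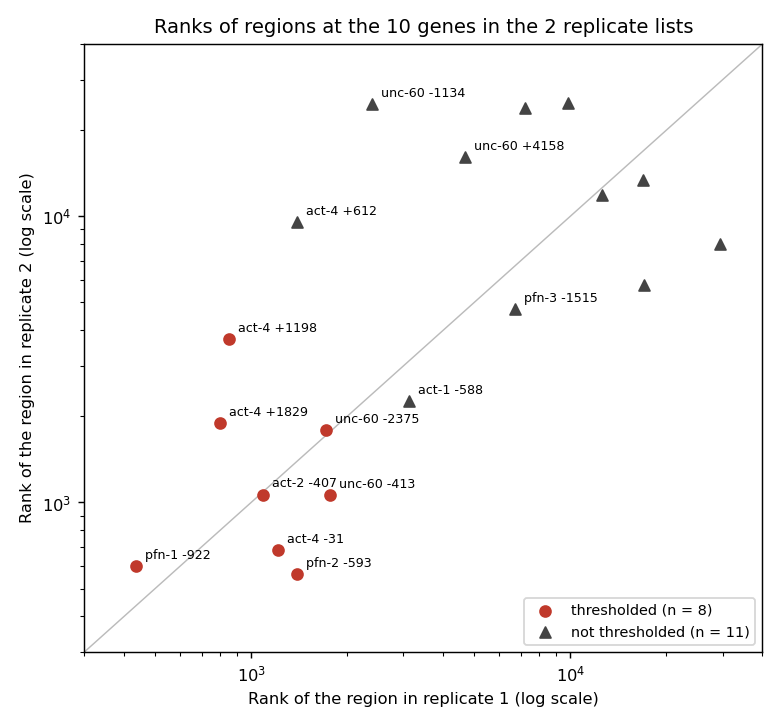
Both axes give the rank of a region within the nuclear regions of a replicate's list, on log scales, with replicate 1 on x and replicate 2 on y and a line of equal rank, for the 8 thresholded sites (red circles) and the 11 other pooled regions matched in both lists (grey triangles). The site in the act-4 intron is the 1 thresholded site that ranks beyond 1940 in a replicate, at 3715 in replicate 2.

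The share of the 10 genes with a thresholded summit was set beside backgrounds that allow for where the genes lie and how long their windows are. The 10 genes were chosen with earlier results of these data known, and these backgrounds after the data had been seen. No test was made, since the genes were not drawn at random. On X, 2 of 4 genes had a summit, beside 410 of 2731 protein-coding genes on X. On the autosomes, 4 of 6 did, beside 1796 of 17242. The windows of the 10 genes ran from 3970 to 7491 bp, and among the 12712 protein-coding genes with windows in this range 9.24% had a summit. With a narrower window around each transcript start, reaching 1500 bp before it and 500 bp past it, 5 of the 10 genes had one, beside 7.38% of all genes. Any region of the pooled list lay in the windows of all 10 genes, beside 70.1% of all genes.

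The windows of the 10 genes also held more regions per length. Counting a shared summit for each gene, there were 0.173 thresholded summits per kb of window, against 0.0211 over all protein-coding genes. In the pooled list there were 0.843 regions per kb against 0.318, in replicate 1 there were 0.613 against 0.317, and in replicate 2 there were 0.767 against 0.317. The 59 other actin pathway genes described below were also above all genes. They had 0.0451 per kb in the thresholded list, 0.527 in the pooled list, 0.46 in replicate 1 and 0.5 in replicate 2. Those with windows as long as the 10 had 0.0089 thresholded summits per kb, against 0.0199 for all genes with such windows.

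Other genes of the actin pathway were taken from a list of 60 symbols, of which 59 matched. Thresholded summits lay at 20 of the 59, or 33.9%, but their windows were longer, with a median of 9151 bp against 5027 bp for all genes. The count fell to 10 of 59 with the window around transcript starts, beside the 7.38% of all genes given above. It was 11 of 59 with 1000 bp upstream to the gene end, beside 7.51% of all genes. Among the 21 listed genes with windows as long as those of the 10 genes, mig-2, for a Rac GTPase, was the 1 with a summit, beside the 9.24% given above. That summit lay 1844 bp upstream of mig-2 and in a promoter, with the start of selt-1.1 nearest to it. Among the 37 with longer windows, 19 had a summit, beside 19.8% of all 3778 genes with such windows.

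The pathway genes with summits were spread over several roles, whose median windows ran from 4802 to 13581 bp. The counts by role stand beside the 11% of all genes, or the 9.24% and 19.8% for windows as long and longer. In filament turnover 4 of 8 genes had one, namely fli-1 (flightless, signal 478.02), viln-1 (villin, signal 322.98), cas-1 (cyclase-associated protein, signal 194.81) and twf-2 (twinfilin, signal 179.51), while cas-2, aipl-1 and tth-1 had none. The fli-1 summit lay 6 bp from a small RNA gene (tRNA, snoRNA or snRNA), and the nearest transcript start was that of pgl-2. The viln-1 summit was the same as that of let-502, whose start was nearer. In nucleation by Arp2/3, WAVE and WASP 2 of 12 genes had one, wve-1 (WAVE, signal 196.62) and arx-1 (Arp3, signal 187.21), while arx-2, arx-3 and arx-4 had none. The nearest start to the strongest summit was that of R06C1.4 for wve-1 and that of Y71F9AL.6 for arx-1. Among formins and Ena 3 of 7 had one, inft-2 (signal 237.56), cyk-1 (signal 220.18) and frl-1 (signal 164.98), with the inft-2 and cyk-1 summits within 100 bp of a small RNA gene of the same kinds.

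None of the 3 capping genes cap-1, cap-2 and unc-94 had a thresholded summit. Of the 19 genes for filament binding and bundling 6 had one, led by spc-1 (alpha-spectrin, signal 265.61), unc-70 (beta-spectrin, signal 243.48), unc-115 (signal 230.78) and pod-1 (a coronin, signal 191.55), while unc-87, atn-1 and plst-1 had none. The strongest unc-70 summit lay 62 bp from such a small RNA gene, and K11C4.2 had the nearest start. Of 5 non-muscle myosin genes and their regulators 3 had one, led by let-502 (signal 322.98), while nmy-1 and mlc-4 had none.

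**Figure D4:**
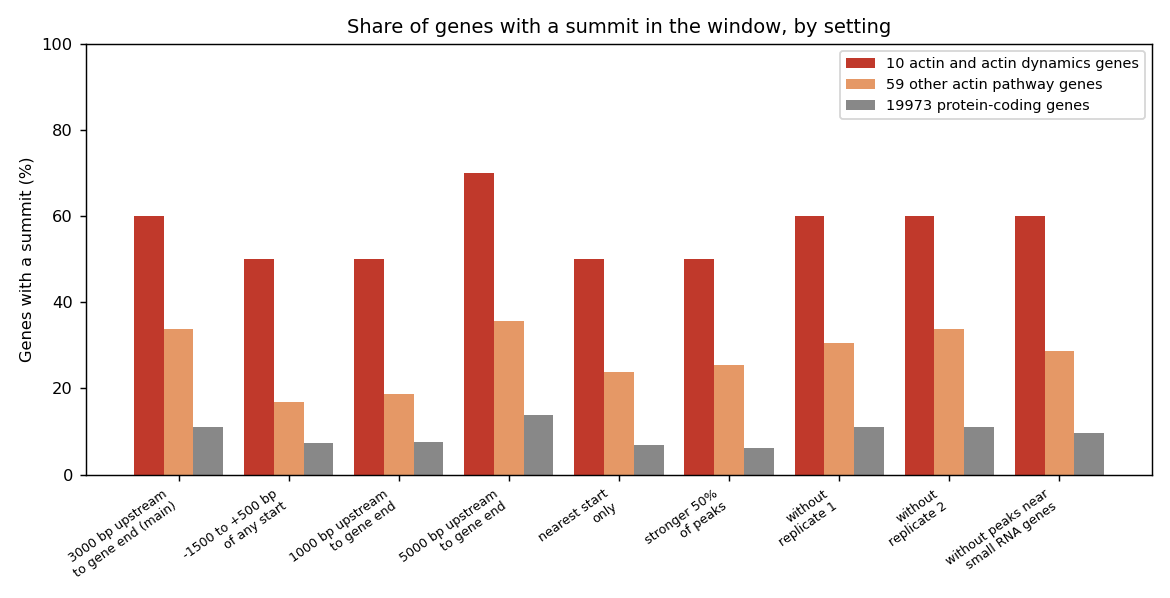
Bars give the percentage of genes with a summit in the window, from 0 to 100%, for the 10 actin and actin dynamics genes (red), 59 other actin pathway genes (orange) and all 19973 protein-coding genes (grey), under the main window on the left and 8 alternatives, with replicate bars drawn from as many of the strongest nuclear regions of the remaining replicate. The 10 genes range from 50% to 70% and all genes from 6.21% to 13.8%.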

How the data were processed

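ChIP-seq for GFP-tagged CND-1 was analysed from 4 deposited peak lists (replicate 1, replicate 2, pooled reads and thresholded). Per the file headers and descriptions in the deposit, the authors called regions against a control alignment on ce11 and derived the thresholded list from the other 3 by the irreproducible discovery rate. The sources used here do not give the caller, the aligner or the rate limit. The signal of each region is the authors' own value, and their deposited −log10 q-value was not used. Depth is unknown. Every nuclear region ended within the WBcel235 chromosomes, the same assembly. Mitochondrial regions (22 to 26 per list) were left out.

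Genes came from Ensembl release 115. Promoters reach from 500 bp before to 100 bp after the start of a protein-coding transcript. Summits within 100 bp were matched between lists, taking the nearest. Motifs were searched in 100 bp centred on the summit. Identity came from global alignment of the longest translated coding sequences (Biopython 1.88). Python 3.11.15, numpy 2.4.6 and pandas 2.3.3 were used, and the assignment of summits to genes was checked on simulated data with known answers.

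The members and lists were chosen with earlier results of these data known. Named were all 10 genes, up to 15 pathway genes with the strongest summits and up to 3 per role without one. mig-2 was named after its values were seen. The count for 1 role of the pathway list is not reported here. Alternatives were other windows, the nearest start, the strongest 970 peaks, each replicate alone, peaks away from small RNA genes, and other matching distances and motif windows. No test was made between groups, as the design holds 1 group.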

Additional observations from a re-analysis of the deposited data

How the results depend on the processing

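The number of the 10 genes with a thresholded summit was 6 and ran from 5 to 7 over the alternatives. It was 6 without replicate 1 and 6 without replicate 2, with the same genes, when as many of the strongest nuclear regions of the remaining replicate were used. Windows of 1000 bp upstream, the window around transcript starts and the nearest start alone each took away act-1, the strongest 970 peaks took away unc-60, and 5000 bp upstream added act-3. The count of pathway genes fell by more than 1.5 times, to 10 with the window around transcript starts and 11 with 1000 bp upstream, where fewer bases count. Over all protein-coding genes the count fell from 2206 to 1474 and 1500 in the same settings. It fell further, to 1358 with the nearest start alone and 1241 with the strongest 970 peaks. Of the 8 thresholded summits at the 10 genes, 6 were matched in both replicates within 50 bp, 8 within 200 bp, and 7 among the strongest 1940 nuclear regions of each replicate. The sites lost at 50 bp were the act-4 intron and the nearer unc-60 site. Shares of all thresholded peaks for these settings are not reported here. An E-box was present in 3 of 8 windows of 60 bp, beside 36.5% of all peaks, and in 5 of 8 windows of 200 bp, beside 67.4%. No paired analysis was possible because both replicates belong to 1 group. With 2 replicates, peak lists alone and no control list, neither depth nor the background at a site could be judged.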
